A study of Pistacia chinensis with 8 samples.

Results

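The change from stage B to stage C was followed in the 2 bud types of the monoecious strain of Pistacia chinensis, Chinese pistache, a tree whose plants mostly bear either male or female flowers. The members are the 4 small RNA libraries labelled strain T2, chosen by their labels, out of 8 libraries in all. They are monoecious bisexual inflorescence buds at stage C and at stage B, and monoecious female inflorescence buds at stage C and at stage B. The other 4 libraries are from dioecious female buds of strain C1 and dioecious male buds of strain X1 at the same stages. They serve to set the T2 change against another, and also enter the choice of rows tested, the scaling and the spread in the test. Each combination of bud type and stage is 1 library, and nothing in the labels says whether buds were pooled, how many trees were sampled or what marks each stage. All groups are whole buds, so fewer cells of a type and less RNA per cell cannot be told apart, and miRNA rows hold no marker by which the tissue could be checked.

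Plant miRNAs are short RNAs cut from a hairpin, of which the guide strand is loaded into an ARGONAUTE protein while the other, passenger strand is mostly lost. Most conserved families repress transcription factors or hormone signalling genes that set phase change, meristem and floral organ identity, and others answer copper, phosphate or sulphate supply. The comparison asks which of them differ between stages B and C in buds of a single strain whose flowers do or do not form stamens. Mature sequences of the rows were not used here, so rows are given by the names in the file, where the prefix is the species of the matching name and predicted miRNAs carry a number, as in novel_41.

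The T2 libraries held 492859 reads for bisexual buds at stage C and 160129 at stage B, and 512244 reads for monoecious female buds at stage C and 821235 at stage B. Levels are read counts brought to a common library size and scaled by TMM, a factor that allows for composition, and are written CPM. A count of 3 reads was worth 4.60 CPM in bisexual buds at stage C, 18.4 CPM at stage B, and 4.81 and 5.14 CPM in monoecious female buds at stages C and B. Ratios of a pair of libraries carry an exact conditional binomial 95% interval, which covers counting error only, as each stage of a bud type is 1 library. Amplified reads need not each stand for a molecule, so even that error may be larger than the interval shows. Near-identical rows of a family, which share reads, are given once by the row with most reads, and a row is said to be past 2-fold when the ratio was at least 2 or at most 0.5, the interval excluded 1 and the pair of libraries held at least 50 reads. No ratio of a single bud type has a replicate check. The bisexual stage B library stood apart: over 248 rows its Spearman correlation with the monoecious female, dioecious female and dioecious male libraries of stage B was 0.81, 0.76 and 0.76, where those 3 had 0.93 to 0.97 with each other. Every ratio of bisexual buds rests on it, and monoecious female ratios are the values without it.

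In both T2 bud types miR408, miR398, miR393, miR169 and a set of predicted miRNAs stood higher at stage C, and several miR159 rows stood lower. None of these changes passed the test over all rows. edgeR's quasi-likelihood test called 0 of 248 rows (0% of rows tested) at a Benjamini-Hochberg adjusted p under 0.05. At an unadjusted p under 0.05 it had 48 rows (19.4%), 33 of them higher (13.3%) and 15 lower (6.05%) at stage C. The spread in that test is the disagreement of the bud types within a sexual system, with 2 residual degrees of freedom, and not a spread between replicate trees. DESeq2 called 32 rows, 22 higher and 10 lower, edgeR with RLE factors called 9, and edgeR on the T2 libraries alone called 10. Without either monoecious female library, when the stage change rests on bisexual buds, it called 31 rows, and without either bisexual library it called 0.

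The miR408 rows, whose family represses copper proteins such as plantacyanin, were nearly absent at stage B. ppt-miR408b, which stands for 4 near-identical rows, had 97 reads in bisexual buds at stage C against 0 at stage B, and 95 reads in monoecious female buds at stage C against 2 at stage B. That was 149 CPM and at least 8.10-fold higher in bisexual buds, and 152 against 3.43 CPM in monoecious female buds, 44.4 times (interval 12.0 to 372.0). Both stage C libraries lay above both stage B libraries. The fitted log2 change of 5.87 (SE 1.04, edgeR adjusted p = 0.0786) depends on the prior count, and was 5.39 to 9.42 when 1 T2 library was left out, highest without a monoecious female library. osa-miR408-3p, a further row of the family, had 54 reads against 0 in bisexual and 55 against 0 in monoecious female buds, at least 4.51-fold and at least 17.1-fold higher at stage C. The lower bound for bisexual buds is smaller because the floor of 3 reads was worth more CPM in the shallow library.

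The miR159 rows, whose family represses GAMYB-like genes of anthers and seeds, did not share a stage change, and 2 of them were lower at stage C by a like ratio in both bud types. ath-miR159b-3p had 24627 against 65364 CPM in bisexual and 23878 against 60152 CPM in monoecious female buds, stage C before stage B. lus-miR159b had 23307 against 64794 CPM and 22339 against 56926 CPM in the same pairs. The stage C levels of each row were below its stage B levels in both bud types. Their log2 changes were -1.37 (SE 0.25) and -1.41 (SE 0.26), each at an edgeR adjusted p of 0.0786. With library totals alone, the change of ath-miR159b-3p was -0.79. The 5 alternatives in which each of these rows passed were RLE factors, DESeq2, the T2 libraries alone, a single stage effect for all sex types, and no bud type term, and their adjusted p over 13 alternatives ran from 0.0104 to 0.158 and 0.157.

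Among predicted miRNAs, which have no known targets here, novel_41 had 145 reads against 0 in bisexual buds and 248 against 4 in monoecious female buds. It was at least 12.1-fold higher in bisexual buds at stage C, and 58.0 times (22.4 to 214) in monoecious female buds. novel_100 had 305 against 49.0 CPM in bisexual and 407 against 48.0 CPM in monoecious female buds, 6.23 times (3.10 to 14.6) and 8.48 times (5.73 to 13.0). Both rows were higher in each stage C library than in each stage B library. novel_39 had 256 against 30.6 CPM and 487 against 32.6 CPM in the same pairs. novel_25 had 324 reads against 0 in bisexual buds, at least 27.1-fold, and 758 against 85.7 CPM in monoecious female buds. The log2 changes of novel_41, novel_100, novel_39 and novel_25 were 6.24, 2.87, 3.53 and 4.42, with edgeR adjusted p of 0.0786, 0.0786, 0.0865 and 0.151. That of novel_41 was 5.81 to 10.004 when 1 T2 library was left out, highest without a monoecious female library.

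**Figure D1:**
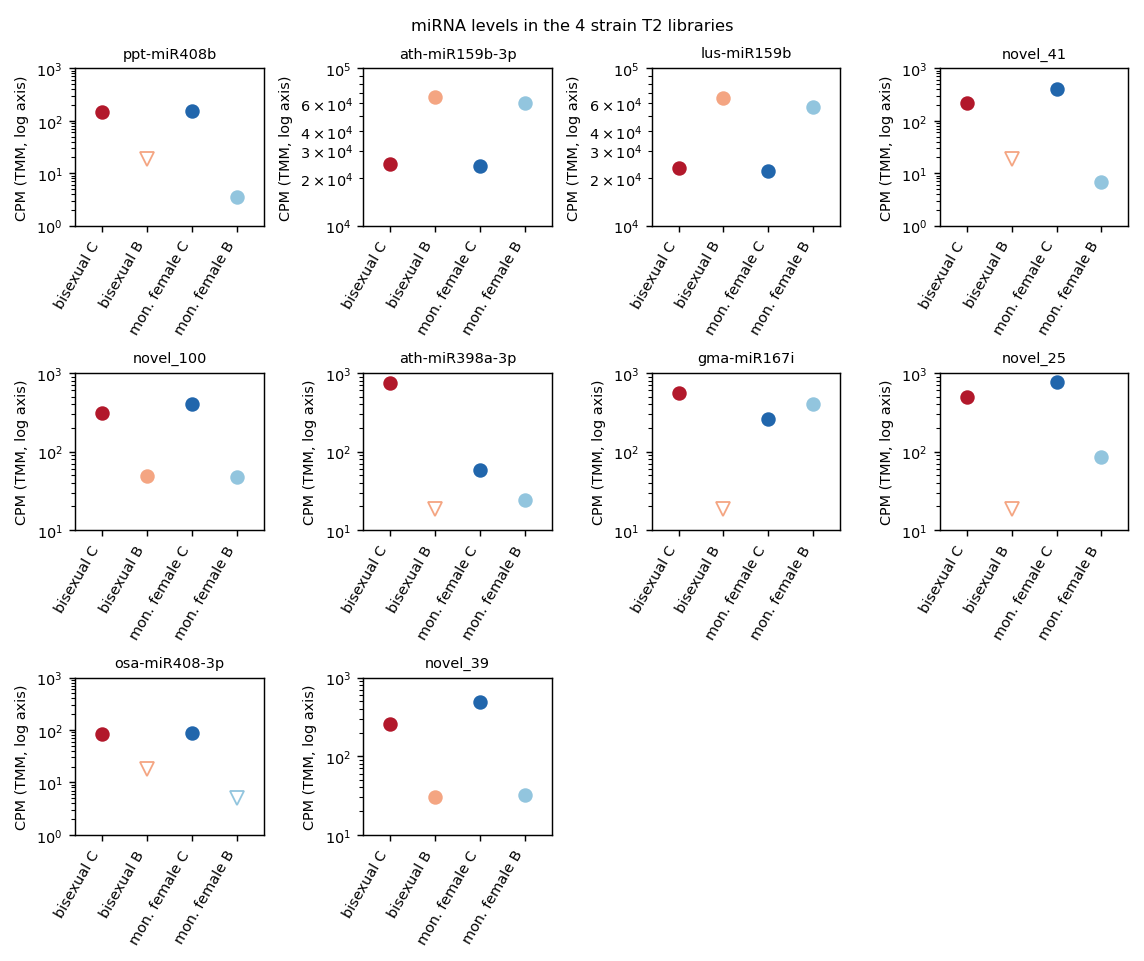
CPM (TMM-scaled, log axis) of the rows with the smallest p or the largest stage C excess in a bud type, in the 4 strain T2 libraries, 1 point a library; an open triangle marks 0 reads and stands at the value of 3 reads. The 2 miR159 rows are lower at stage C in both bud types, gma-miR167i is higher in bisexual and lower in monoecious female buds at stage C (a direction that library totals turn round there), and the remaining rows are higher in both.

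Counted apart, bisexual buds had 63 rows past 2-fold higher at stage C (39.6% of rows with enough reads) and 28 lower (17.6%). Monoecious female buds had 44 higher (24.3%) and 35 lower (19.3%) of 181 rows. With near-identical rows once, 44 were higher (35.8%) and 27 lower (22%) of 123 groups in bisexual buds, and 31 higher (21.5%) and 34 lower (23.6%) of 144 groups in monoecious female buds. Library totals in place of TMM gave 73 higher and 20 lower rows in bisexual buds and 63 higher and 7 lower in monoecious female buds, so the split of directions depends on scaling. That scaling raises every log2 ratio by 0.38 in bisexual and by 0.78 in monoecious female buds.

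Of 118 groups with enough reads in both pairs, 17 were past 2-fold higher in both bud types (14.4%) and 7 lower in both (5.93%). Among these 118, 43 were higher and 23 lower in bisexual buds, and 26 higher and 27 lower in monoecious female buds. Whether the overlap exceeds what these counts alone would give was not tested. Those higher in both were rows of miR408, miR398, miR393, miR395, miR171, miR168 and miR6478 and 7 predicted miRNAs. miR171, which represses GRAS regulators of meristems, was represented by aqc-miR171f at 574 against 178 CPM in bisexual and 822 against 274 CPM in monoecious female buds. osa-miR395c, whose family represses sulphate assimilation genes, stood at 159.6 against 12.3 CPM and 164.97 against 29.1 CPM. osa-miR398b stood at 1610 against 337 CPM and 1280 against 188 CPM. Those lower in both were ath-miR159b-3p, lus-miR159b, bdi-miR159a-3p, ath-miR399b, ppt-miR319a, novel_30 and novel_35. The rows of these lists not named by a rule were chosen after their values were seen. In dioecious female and male buds alike, 12 of the 17 and 4 of the 7 were also past 2-fold in the same direction, where 23 and 17 of all 118 groups were. So were 17 of the 26 higher and 12 of the 27 lower in monoecious female buds counted apart. For bisexual buds counted apart it was 12 of the 43 higher and 4 of the 23 lower.

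Beyond these rows the libraries of the bud types differed in their stage change. They were compared over 110 rows, near-identical rows once, with at least 50 reads in each T2 pair and reads in all 8 libraries. Over these rows the log2 change of bisexual buds had a Spearman correlation of 0.29 with that of monoecious female buds. The change of monoecious female buds had 0.80 with that of dioecious female buds and 0.80 with that of dioecious male buds. The change of bisexual buds had 0.24 and 0.15 with those of dioecious female and male buds. These correlations describe rows that share reads, libraries and scaling, and rows at 0 in any library are left out. With all libraries thinned to 160129 reads the values were 0.15 for bisexual with monoecious female buds, 0.72 and 0.73 for monoecious female with dioecious female and male buds, and 0.18 and 0.09 for bisexual with dioecious female and male buds, over 104 rows.

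**Figure D2:**
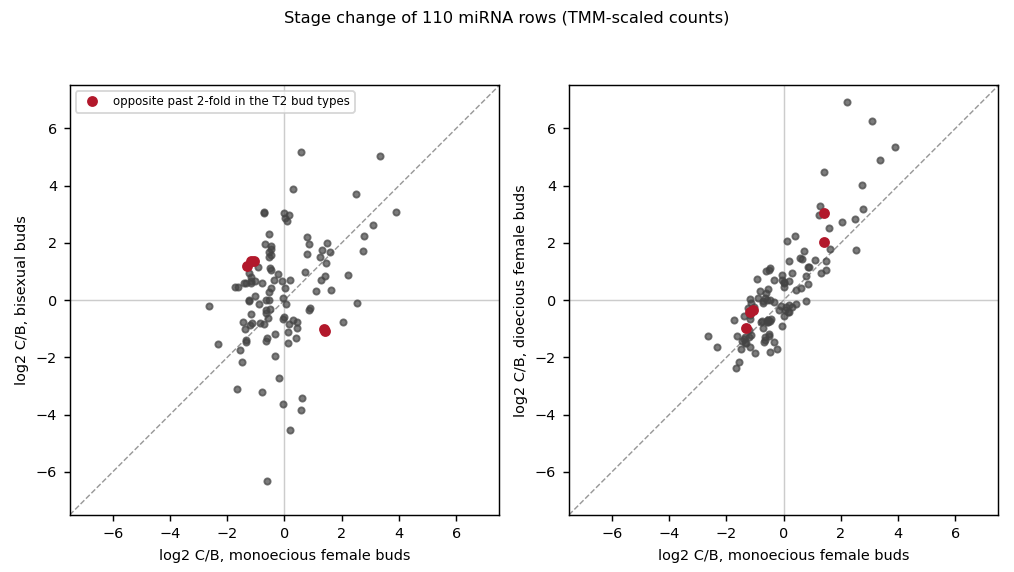
Log2 ratio of stage C over stage B in TMM-scaled counts for 110 miRNA rows with reads in all 8 libraries, with monoecious female buds on the x axes and bisexual buds (left) or dioecious female buds (right) on the y axes; the dashed line marks equal change. Near-identical rows are shown once, and each row held at least 50 reads in each T2 pair. Points follow the line on the right (Spearman 0.80) and spread widely on the left (0.29), and 5 rows past 2-fold in opposite directions in the T2 bud types are red.

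The bisexual library was close to the monoecious female one at stage C and apart from it at stage B, as it was from every other stage B library. At stage C the median absolute log2 difference of bisexual from monoecious female buds was 0.34, and 8 of the 110 rows differed at least 2-fold. At stage B it was 1.22, and 63 of the 110 rows differed at least 2-fold. Dioecious male and female buds at stage B had a median difference of 0.34. Thinning to equal depth left the T2 medians at 0.29 at stage C and 1.22 at stage B. The thinned values were added after the data were seen. The bisexual stage B library held the fewest reads of the 4, and with 1 library a bud type, a difference between bud types and one of this library alone cannot be told apart.

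The miRNAs highest in bisexual buds at stage C relative to stage B were led by rows with no read at stage B. ath-miR398a-3p, whose family represses copper/zinc superoxide dismutases, had 492 reads at stage C against 0 at stage B in bisexual buds, at least 41.1-fold higher. In monoecious female buds it had 36 against 14 reads, 2.40 times (1.27 to 4.83). gma-miR167i, whose family represses the auxin response factors ARF6 and ARF8 of stamens and ovules, had 359 against 0 reads in bisexual buds, at least 30.0-fold higher. In monoecious female buds it had 256 against 397.5 CPM, 0.645 times (0.524 to 0.792), a direction that library totals turned round (log2 0.14). The other rows of this rank were novel_25, novel_41 and ppt-miR408b, given above.

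The rows lowest in bisexual buds at stage C relative to stage B were chosen by the interval of that ratio. A high level in the bisexual stage B library is therefore part of the choice. osa-miR166d-5p, named for the passenger arm of miR166, stood at 752 CPM at stage C against 59457 CPM at stage B in bisexual buds, 0.0126 times (0.0115 to 0.0139). In monoecious female buds it stood at 637 against 980 CPM, 0.650 times (0.571 to 0.741), which became a log2 ratio of 0.16 with library totals. osa-miR166b-5p stood at 27.6 against 1906 CPM in bisexual and 17.6 against 48.0 CPM in monoecious female buds. The bisexual stage B library stood above the other 3 for both miR166 rows. novel_19 stood at 488 against 11360 CPM in bisexual buds and 485 against 423 CPM in monoecious female buds. zma-miR396g-5p stood at 16.9 against 441 CPM and 11.2 against 10.3 CPM in these pairs, and ath-miR8175 at 78.3 against 1115 CPM and 59.3 against 39.4 CPM. For each of these 3 rows the bisexual stage B level was the highest of the 4 libraries.

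Rows named for the passenger arm were summed in the families with a known guide arm. In miR166, which represses HD-ZIP III genes of organ polarity, they took 0.277% (exact binomial interval 0.253 to 0.302%) of family reads in bisexual buds at stage C and 15.3% (15.0 to 15.5%) at stage B. In monoecious female buds they took 0.208% (0.188 to 0.229%) at stage C and 0.228% (0.210 to 0.247%) at stage B. In miR396, which represses growth-regulating factors, the share was 18.2% at stage C and 24.4% at stage B in bisexual buds, and 17.0% and 10.1% in monoecious female buds. Over the listed families other than miR166 it was 1.27% and 1.45% in bisexual and 1.20% and 0.758% in monoecious female buds, stage C before stage B. The sum without miR166 was added after the data were seen, and it follows the families with most reads. Bisexual buds at stage B also had the highest share of the 4 libraries in miR167, miR168 and miR159. In miR167 it was 3.27% at stage C and 17.0% (13.5 to 21.0%) at stage B in bisexual buds, and 5.24% and 3.89% in monoecious female buds. In miR168 it was 12.3% and 29% (20.4 to 38.9%) in bisexual buds, and 15.7% and 19.5% (15.5 to 24.0%) in monoecious female buds, so the stage B intervals overlap. In miR159 it was 0.0143% and 0.128% (0.0994 to 0.162%) in bisexual buds, and 0.00426% and 0.00644% in monoecious female buds. In miR390 the bisexual stage B library had the lowest share, at 1.49% and 0.399% in bisexual buds and 4.30% and 3.05% in monoecious female buds. Its share was also the lowest in miR403, miR164 and miR160, with 0 passenger-arm reads of 202, 257 and 33. The intervals of those shares reached 1.81%, 1.43% and 10.6%. Arm names come from the file, and reads on near-identical rows are counted more than once in these sums.

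**Figure D3:**
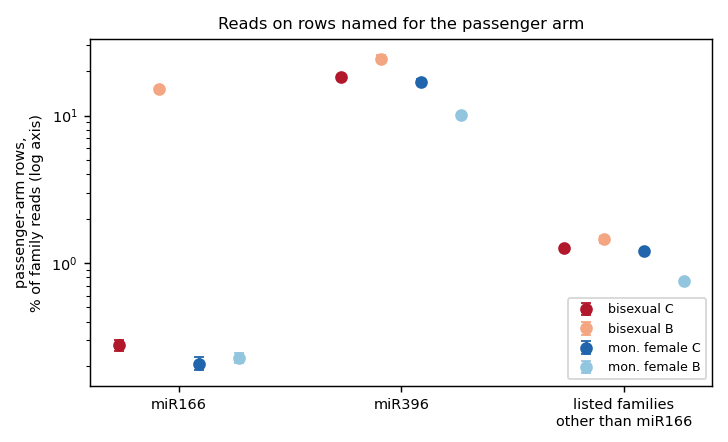
Share of family reads on rows named for the passenger arm (percent, log axis) in the 4 strain T2 libraries, with exact binomial 95% intervals, for miR166, miR396 and the sum of the listed families other than miR166. Bisexual buds at stage B stand at 15.3% for miR166, where the other libraries lie between 0.208 and 0.277%.

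In monoecious female buds the rows lowest at stage C relative to stage B belonged to miR160, miR399 and miR395. osa-miR160f-5p, whose family represses the auxin response factors ARF10, ARF16 and ARF17, stood at 91.3 against 570.5 CPM in monoecious female buds, 0.160 times (0.119 to 0.212). In bisexual buds it stood at 69.1 against 79.7 CPM, and the interval of its ratio, 0.460 to 1.75, included 1. ath-miR399b, whose family represses the phosphate regulator PHO2, stood at 253 against 729 CPM in bisexual and 397.2 against 2008 CPM in monoecious female buds, lower at stage C in both. osa-miR399j had 36.8 against 204 CPM in monoecious female buds, and 21 reads at stage C against 0 at stage B in bisexual buds. ath-miR395a stood at 46.4 against 269 CPM in monoecious female and 38.4 against 104 CPM in bisexual buds. tae-miR395b had the same levels as ath-miR395a in monoecious female buds, but 25 against 5 reads in bisexual buds. The rows highest there at stage C relative to stage B were novel_41, osa-miR408-3p, ppt-miR408b, novel_39 and novel_25, all given above.

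Of 153 rows with enough reads in both pairs, 6 were past 2-fold in opposite directions in the bud types (3.92%), or 5 of 118 groups (4.24%). 3 of the 5 were higher at stage C in bisexual and lower in monoecious female buds. ptc-miR319e, whose family represses TCP genes of leaf and petal growth, stood at 9298 against 3615 CPM in bisexual buds, 2.57 times (2.36 to 2.80), and at 9130 against 20545 CPM in monoecious female buds, 0.444 times (0.430 to 0.459). ath-miR319c, a row of the same family, stood at 10226 against 3989 CPM and 10057 against 21143 CPM. pta-miR159c stood at 184 against 79.7 CPM, 2.31 times (1.30 to 4.47), and at 123 against 305 CPM. At stage C the 2 miR319 rows differed little between bud types, and at stage B bisexual buds were lower.

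The 2 others ran the other way. ath-miR403-3p, whose family represses AGO2, stood at 559 against 1189 CPM in bisexual buds, 0.470 times (0.394 to 0.562), and at 612 against 230 CPM in monoecious female buds, 2.66 times (2.18 to 3.27). ath-miR396a-3p, which stands for 2 near-identical rows, stood at 319.2 against 649 CPM and 244 against 92.5 CPM. For both rows the bud types were again closer at stage C than at stage B. With library totals these 5 rows kept both directions but none was past 2-fold in both, while ath-miR8175 and novel_21, the second named after its values were seen, were past it in opposite directions.

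**Figure D4:**
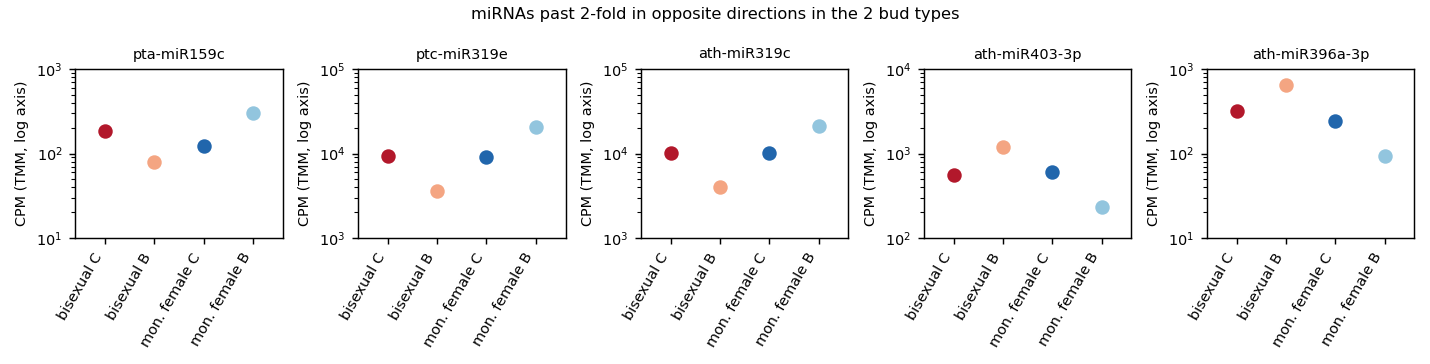
CPM (TMM-scaled, log axis) of the 5 rows past 2-fold in opposite directions in the 2 bud types, 1 point for each strain T2 library. The stage C levels lie close together, as at 9298 and 9130 CPM for ptc-miR319e, and the stage B levels lie apart, at 3615 CPM in bisexual and 20545 CPM in monoecious female buds.

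Summing the rows of a family, edgeR called 0 of 96 families and predicted miRNAs (0%), with 22 (22.9%) at p under 0.05 before adjustment, while DESeq2 called 12. Of the 41 named families in the lists, 29 were tested, with 5 higher and 2 lower at an unadjusted p under 0.05, against 15 higher (15.6%) and 7 lower (7.29%) of all 96. Their median log2 change was 0.28, against 0.03 over all 96. In bisexual buds 10 of the 29 were past 2-fold higher and 2 lower, against 22 (22.9%) and 15 (15.6%) of all 96. In monoecious female buds 9 were higher and 4 lower, against 20 (20.8%) and 8 (8.33%) of all 96. Family sums count shared reads more than once, and their ratios use the scale of the rows while the test has its own TMM factors.

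Both tested copper families were higher in both bud types. miR408 stood at 685 CPM against 0 reads in bisexual buds, at least 37.2-fold, and at 698 against 13.7 CPM in monoecious female buds, 51.0 times (25.6 to 119). miR398 stood at 3255 against 349 CPM in bisexual buds, 9.32 times (7.17 to 12.3), and at 1437 against 245 CPM in monoecious female buds, 5.86 times (4.91 to 7.05). Their fitted log2 changes were 6.30 (SE 1.04) and 2.85 (SE 0.49), each at an edgeR adjusted p of 0.0502. That of miR408 was 11.4 without either monoecious female library, and 5.51 without the stage C and 5.22 without the stage B library of bisexual buds. That of miR398 was 3.30 without either monoecious female library, and 2.41 and 2.12 without the stage C and the stage B library of bisexual buds. They passed in 8 and 7 of 11 alternatives, with adjusted p of 6.9e-09 to 0.0645 and 2.1e-06 to 0.0645. The median of this list, 4.58, stood beside 0.03 over all families.

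The 4 auxin families did not share a direction. miR393, which represses the TIR1/AFB auxin receptors, stood at 219 CPM at stage C against 1 read at stage B in bisexual buds, 35.8 times (6.33 to 1425), and at 184 against 34.3 CPM in monoecious female buds, 5.38 times (3.32 to 9.13). miR160 stood at 1226 against 202 CPM in bisexual buds, 6.06 times (4.28 to 8.87), but at 673 against 1537 CPM in monoecious female buds, 0.438 times (0.389 to 0.492). miR167 likewise stood at 8443 against 2555 CPM in bisexual and 4092 against 5733 CPM in monoecious female buds. miR390, whose cleavage of TAS3 gives rise to trans-acting siRNAs directed at ARF genes, stood at 2881 against 3070 CPM in bisexual buds and at 4549 against 786 CPM in monoecious female buds, 5.78 times (5.24 to 6.40). Only miR393 had an unadjusted p under 0.05 in this list (edgeR adjusted p = 0.129).

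Among 9 tested families of floral organ, leaf and meristem regulators, 2 were higher and 1 lower at an unadjusted p under 0.05, against 22.9% in either direction over all families. miR169, which represses NF-YA genes, stood at 98.2 against 12.3 CPM in bisexual buds, where stage B held 2 reads, 8.02 times (2.13 to 67.6), and at 155 against 22.3 CPM in monoecious female buds, 6.98 times (3.89 to 13.6), with a log2 change of 2.81 (SE 0.59, edgeR adjusted p = 0.0742). miR171 stood at 6354 against 2432 CPM and 8007 against 3944 CPM. miR159 stood at 214940 against 325532 CPM in bisexual buds, 0.660 times, and at 225365 against 532200 CPM in monoecious female buds, 0.423 times. The most abundant family, miR166, had nearly the same TMM-scaled ratio in both bud types, 0.702 and 0.699 times. It stood at 282792 against 402837 CPM in bisexual and 317038 against 453679 CPM in monoecious female buds. In bisexual buds at stage B, 10032 of its 65747 reads lay on rows named for the passenger arm. As a share of library reads miR166 was lower at stage C in bisexual buds (37.4% against 41.1%). That share was higher at stage C in monoecious female buds (38.6% against 32.2%), so the likeness of the ratios depends on scaling. miR319 stood at 141055 against 142743 CPM in bisexual buds, 0.988 times (0.974 to 1.0), and at 150102 against 254234 CPM in monoecious female buds, 0.590 times (0.586 to 0.595). miR394, which represses an F-box gene of the stem cell niche, stood at 2502 against 680 CPM in bisexual and 2785 against 3853 CPM in monoecious female buds.

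The phase change list had 3 tested families and none past 2-fold on the rule above. miR156, which represses SPL genes, stood at 75.2 CPM against 0 reads in bisexual buds, at least 4.09-fold, and at 52.9 against 53.1 CPM in monoecious female buds, 0.995 times (0.591 to 1.68). It held fewer than 50 reads in the bisexual pair. miR172, which represses AP2-like floral organ genes, stood at 471 against 515 CPM in bisexual buds and 790 against 778 CPM in monoecious female buds, and both intervals included 1. miR535 held 1 read in bisexual and 10 reads in monoecious female buds at stage B.

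In the phosphate and sulphate list miR399 was lower in both bud types, at 358 against 809 CPM, 0.442 times (0.356 to 0.552), in bisexual and 695 against 2616 CPM, 0.266 times (0.238 to 0.296), in monoecious female buds (log2 change -1.58, SE 0.51, edgeR adjusted p = 0.150). miR395 stood at 485 against 202 CPM in bisexual and 508 against 627 CPM in monoecious female buds. Of the silencing families, miR168, which represses AGO1, stood at 1162 against 613 CPM and 1360 against 606 CPM, 1.90 and 2.24 times, and miR403 at 655 against 1238 CPM and 706 against 252 CPM. miR482, which represses disease resistance genes and triggers phasiRNAs, stood at 675 against 2475 CPM in bisexual buds, 0.273 times (0.238 to 0.313), and at 573 against 718 CPM in monoecious female buds, 0.799 times (0.692 to 0.922). miR858, which represses MYB genes of flavonoid synthesis, stood at 29153 against 13296 CPM in bisexual buds, 2.19 times (2.10 to 2.29), and at 38125 against 54742 CPM in monoecious female buds, 0.696 times (0.685 to 0.708). In miR858, miR160, miR167 and miR394 the bisexual stage B level was the lowest of the 4 libraries.

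Among the remaining families, miR477, which is known to target GRAS genes in trees, stood at 364 against 294 CPM in bisexual buds, where its interval included 1, and at 766 against 286 CPM in monoecious female buds, 2.68 times (2.24 to 3.21). miR530 stood at 285 against 539 CPM in bisexual and 219 against 336 CPM in monoecious female buds, lower at stage C in both. Of the 58 predicted miRNAs tested, 11 were past 2-fold higher and 10 lower in bisexual buds, and 10 and 4 in monoecious female buds, near the shares over all 96 given above. The 58 include members with too few reads in a pair to be past 2-fold, and novel_106 had 0 reads in every T2 library. In the test they had a median log2 change of -0.10, with 9 higher and 5 lower at an unadjusted p under 0.05 and 0 called by edgeR after adjustment. They held 3.94% of reads in bisexual buds at stage C and 4.91% at stage B, and 3.94% and 1.797% in monoecious female buds.

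**Figure D5:**
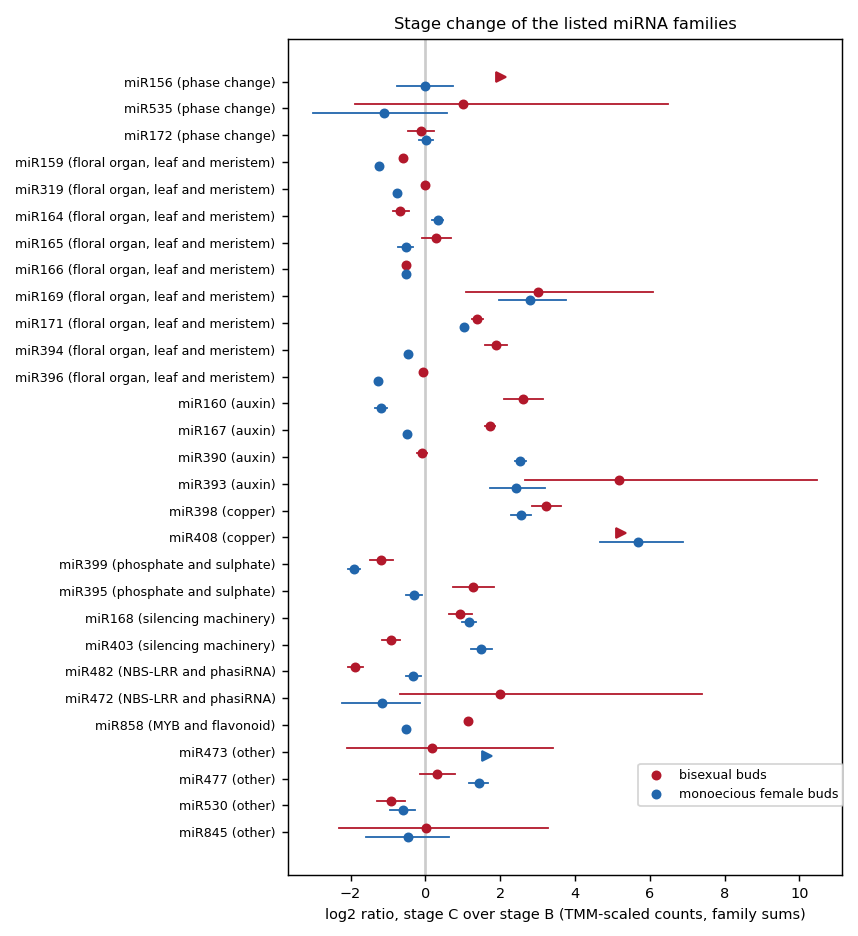
Log2 ratio of stage C over stage B in TMM-scaled family sums for the 29 listed families tested, with bisexual buds in red above monoecious female buds in blue; lines are exact conditional binomial 95% intervals and a triangle is a lower bound where stage B held 0 reads. miR408, miR398, miR393, miR169 and miR171 lie right of 0 in both bud types, while miR160, miR167, miR394, miR395 and miR858 lie right of 0 in bisexual and left of 0 in monoecious female buds.

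The most abundant rows are miR159, miR166 and miR319. ath-miR159a stood at 119764 against 121341 CPM in bisexual buds, 0.987 times (0.972 to 1.003), and at 132474 against 309822 CPM in monoecious female buds, 0.428 times (0.424 to 0.431). Its stage B level in monoecious female buds was the highest of the 4 libraries, and the other 3 lay close together. gma-miR166u stood at 62870 against 78843 CPM in bisexual and 72261 against 103727 CPM in monoecious female buds. mtr-miR319a-3p stood at 54147 against 69303 CPM and 59742 against 92608 CPM. ath-miR166a-3p, with zma-miR166h-3p among its near-identical rows, stood at 48056 against 66166 CPM and 57859 against 89857 CPM. The log2 changes of these rows were -0.62 (SE 0.32), -0.42 (SE 0.22), -0.49 (SE 0.26) and -0.55 (SE 0.23), with edgeR adjusted p of 0.283 to 0.372.

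The stage change of T2 buds was set against that of dioecious buds in the same model, in which strain and sexual system cannot be told apart. edgeR called 0 of 248 rows (0%) for the difference, with 8 rows (3.23%) at p under 0.05 before adjustment, and DESeq2 called 0, with 20 rows below that unadjusted p. The smallest p belonged to predicted miRNAs that stood higher at stage C in dioecious buds. novel_100 had ratios of 6.23 in bisexual and 8.48 in monoecious female buds, against 76.0 in dioecious female and 48.7 in dioecious male buds, whose stage B libraries held 2 reads each. novel_62 had 0.783 and 0.701 in the T2 pairs, against 5.04 and 6.52 in dioecious female and male buds. novel_37 had 1.05 and 1.09, against 11.9 and 4.62, with 5 reads in bisexual and 4 in dioecious male buds at stage B. novel_117 had 3.51 and 3.14, against 22.9 (3.58 to 956) and 46.8 (7.91 to 1898). At stage B it held 2 reads in bisexual buds and 1 read in each dioecious library. osa-miR166b-5p had 0.0145 and 0.367, against 1.75 and 4.66. The differences in log2 change were -2.96 (SE 0.82), -2.93 (SE 0.86), -2.88 (SE 0.90), -3.17 (SE 1.06) and -5.42 (SE 1.87) in that order, each at an edgeR adjusted p of 0.791. The difference of osa-miR166b-5p was -3.14 without the bisexual stage B library and -2.98 without the stage C one, and -7.65 without either monoecious female library.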

How the data were processed

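The deposited table gives raw read counts for 471 miRNA rows in 8 libraries, per the file headers. A second set of columns holds TPM values by the authors, each in proportion to its count over the column total, and served only to check the counts. The submitters' processing notes name CASAVA 1.8 and Bowtie with no role. Build, miRBase release and allowed mismatches are not stated there. The test was edgeR's quasi-likelihood F-test (version 4.0.16, R 4.3.3, TMM factors) on 248 rows that reached 10 reads in 2 or more libraries. The model had 4 sex types and a stage effect each for monoecious and dioecious buds, and standard errors are the absolute log2 change over the square root of F. DESeq2 1.42.0, other scalings, filters and models were alternatives. The procedure was tested on simulated data, in which all libraries shared a mean profile and both T2 bud types changed alike. That setting does not cover the disagreement of the bud types seen here. Family rows whose counts lay within 5% or 2 reads throughout counted as near-identical, which made 339 groups. Named were up to 5 rows with the smallest p (none passed), up to 5 rows per direction and bud type with the interval bound farthest from 1, rows past 2-fold in opposite directions, the 5 smallest p for the difference from dioecious buds, the 5 most abundant rows and families of functional lists. The members and lists were chosen with earlier results of these data known. The labels name no replicate trees or cultures. In the main test, p-values rest on how the bud types of a sexual system differ in their stage change.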

Additional observations from a re-analysis of the deposited data

Results flagged for a closer look

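Each of 5 rows stood past 2-fold one way in bisexual buds and the other way in monoecious female buds of the same strain, and these differences were not tested, since each stage of a bud type is 1 library. The log2 ratio of stage C over stage B in bisexual buds minus that in monoecious female buds was 2.52 for pta-miR159c, 2.53 for ptc-miR319e, 2.43 for ath-miR319c, -2.50 for ath-miR403-3p and -2.42 for ath-miR396a-3p. In all 5 rows the stage C levels of the bud types lay closer together than the stage B levels, and the bisexual library of stage B held the fewest reads. That closeness at stage C was not particular to these rows. Over the 110 rows compared above, the median absolute log2 difference of the bud types was 0.34 at stage C and 1.22 at stage B. With library totals none of the 5 was past 2-fold in both bud types.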

How the results depend on the processing

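The 0 rows called for the T2 stage change became 9 with RLE factors, 32 with DESeq2, 10 on the T2 libraries alone, 47 with 1 stage effect for all sex types, 14 with no bud type term, and 0 to 31 without 1 T2 library. The 0 families called became 12 with no filter, 5 with at least 50 reads, 12 with DESeq2, 7 with no bud type term, 4 with the most abundant row of a family, and 0 to 37 without 1 T2 library. Without a library, the stage change of its bud type has no value, and the remaining library is assumed to vary like the other groups (1 residual degree of freedom). The 0 calls for the difference from dioecious buds stayed 0 in every alternative run. Of 91 rows past 2-fold in bisexual buds, 56 were counted at a minimum of 200 reads, and of 79 in monoecious female buds 46, or 47 after thinning. The 6 opposite rows became 2 with library totals and 11 at a minimum of 20 reads. The cause of each change was not tested, but fewer rows enter at 200 reads and after thinning.

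Family log2 changes turned round with library totals for miR172 (0.53), miR535 (0.31), miR166 (0.0629), miR319 (0.19), miR472 (0.59) and miR845 (0.34), with no filter for miR172 (0.0768), with DESeq2 for miR472 (0.0473), with no bud type term for miR403 (-0.14) and miR858 (-0.0552), and with the most abundant row for miR172 (0.14) and miR160 (-1.59). Library totals also turned round gma-miR167i (0.14) and osa-miR166d-5p (0.16) in monoecious female buds. Without 1 T2 library, log2 changes that turned round spanned -1.50 to 1.05 for miR535, -1.19 to 0.0663 for miR319, -0.0082 to 2.40 for miR390, -0.83 to 1.35 for miR403, -1.57 to 2.04 for miR472, -0.89 to 0.0845 for miR845, -0.44 to 8.25 for miR156, -0.92 to 1.81 for miR167, -1.63 to 2.68 for miR160, -0.74 to 1.34 for miR395 and -0.96 to 1.22 for miR858.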
